A study of Mus musculus with 12 samples.

Results

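Amino acid catabolism and the urea cycle were represented by 10 genes in RNA-seq of liver, gastrocnemius muscle and gonadal white adipose tissue (WAT) of male C57BL/6J mice. The genes were *Tat*, *Tdo2*, *Sds*, *Got1*, *Gpt*, *Gpt2*, *Cps1*, *Ass1*, *Arg1* and *Otc*. They were selected by symbol from 22252 entries in liver and in gonadal WAT and 22273 in gastrocnemius, and each of the 10 was found in every tissue under the same transcript. All mice carried a floxed glucocorticoid receptor (GR) gene, *Nr3c1*, with exon 3 between the loxP sites. GRf/f mice had no Cre, whereas GRmKO mice carried a Cre transgene under the skeletal actin (*Acta1*) promoter, which is active in myofibers. Starting at 8 weeks of age, they received 100 µg/mL corticosterone (CORT), the main glucocorticoid of rodents, or its 1% ethanol vehicle in the drinking water for 4 weeks. Each of the 12 combinations of tissue, genotype and treatment was 1 library of RNA pooled from 3 mice. No group had a replicate, so no p-value is given and a difference cannot be set against the spread between mice.

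Amino acids are broken down mainly in liver. Aminotransferases move the amino group to a shared acceptor, other enzymes open the carbon skeleton, and the urea cycle fixes the released ammonia into urea for excretion. Glucocorticoids are known to promote the release of amino acids from muscle and their use for glucose production in liver. *Tat*, tyrosine aminotransferase, starts tyrosine breakdown and is a textbook glucocorticoid-induced gene of hepatocytes. *Tdo2*, tryptophan dioxygenase, starts tryptophan breakdown along the kynurenine route, and *Sds*, serine dehydratase, converts serine to pyruvate and ammonia. *Got1* encodes the cytosolic aspartate aminotransferase, *Gpt* the cytosolic alanine aminotransferase and *Gpt2* its mitochondrial counterpart. In the urea cycle, *Cps1* and *Otc* act in mitochondria and make carbamoyl phosphate and citrulline. *Ass1* and *Arg1* act in the cytosol, where *Ass1* makes argininosuccinate and *Arg1*, arginase, releases urea.

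Promoter windows, 250 bases before to 50 bases after the RefSeq start site on GRCm38.p6, were matched by symbol for 6 of the 10 genes, namely *Tat*, *Tdo2*, *Got1*, *Gpt2*, *Ass1* and *Otc*. The 250 bases before the start site are shown for *Tat* and *Got1*, the members with the most negative CORT values in liver, and for *Otc*, which had the next most negative value in both genotypes. *Tat* lies on the plus strand (chr8:109990186-109990435), *Got1* on the minus strand (chr19:43524606-43524855) and *Otc* on the plus strand (chrX:10252055-10252304), each printed 5′ to 3′ along its own strand. The genes that follow them are *Tat* (chr8:109990437-109999803, 12 exons in the counted transcript), *Got1* (chr19:43499752-43524605, 9 exons) and *Otc* (chrX:10252305-10321024, 10 exons). Capitals mark CCAAT or its reverse complement ATTGG.
Tat: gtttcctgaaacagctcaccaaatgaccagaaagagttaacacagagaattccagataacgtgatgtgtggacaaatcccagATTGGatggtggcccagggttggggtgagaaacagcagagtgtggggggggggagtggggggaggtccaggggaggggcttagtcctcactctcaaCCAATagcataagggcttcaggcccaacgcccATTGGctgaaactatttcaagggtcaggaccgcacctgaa
Got1: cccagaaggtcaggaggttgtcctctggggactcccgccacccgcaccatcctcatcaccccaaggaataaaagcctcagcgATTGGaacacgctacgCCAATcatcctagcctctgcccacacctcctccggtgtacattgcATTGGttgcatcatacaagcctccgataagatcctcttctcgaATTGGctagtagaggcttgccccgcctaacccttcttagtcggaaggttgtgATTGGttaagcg
Otc: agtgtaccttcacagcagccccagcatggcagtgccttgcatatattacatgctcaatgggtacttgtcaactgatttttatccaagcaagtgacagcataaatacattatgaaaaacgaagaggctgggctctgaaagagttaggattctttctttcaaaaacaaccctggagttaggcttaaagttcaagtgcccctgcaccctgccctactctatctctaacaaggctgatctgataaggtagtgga
None of the 6 windows held the glucocorticoid response element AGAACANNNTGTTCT, its single hexamer AGAACA, the cAMP response element TGACGTCA, the C/EBP palindrome TTGCGCAA or the FOXO motif GTAAACA on either strand. Among all 32851 windows in the table, these motifs occurred in 0.00913%, 19%, 1.79%, 0.183% and 3.65%. The hexamer also lies inside the full element, so the first share is contained in the second. Sequence outside the windows was not searched, so sites elsewhere cannot be judged from these matches. The CCAAT motif was added after the sequences were seen and occurred in 37.4% of all windows. It matched 6 times in the 300-base window of *Got1* and 3 times in that of *Tat*, once in that of *Tdo2* and not in those of *Gpt2*, *Ass1* and *Otc*. At least 6 matches were found in 0.0791% of all windows and at least 3 in 3.37%. The *Tdo2* start site in RefSeq lies 474 bases from the start of the transcript that was counted, so its window does not adjoin that transcript.

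The libraries held 19394572 to 20940660 estimated counts, and levels are given as counts-per-million (CPM) of the library total. The floor of 3 counts corresponds to 0.143 to 0.155 CPM. Intervals are 95% intervals of counting error only and do not cover the spread between mice. *Nr3c1*, the deleted gene, stood in gastrocnemius at 113 CPM in vehicle-treated GRf/f mice, 90.4 in CORT-treated GRf/f mice, 46.4 in vehicle-treated GRmKO mice and 35.5 in CORT-treated GRmKO mice. Relative to GRf/f muscle, GRmKO muscle held 41.2% with vehicle treatment and 39.2% with CORT. Only exon 3 is floxed and bulk muscle holds other cells too, so these shares do not measure the receptor lost from myofibers. In liver and gonadal WAT no *Nr3c1* change reached 2-fold. Above the floor were 8 of 8 muscle-fibre markers in every gastrocnemius library and 7 of 7 adipocyte markers in every WAT library. So were 9 of 10 hepatocyte markers in every liver library, the remaining one (*Tf*) not being among the entries. This does not tell tissues apart, since the same 9 passed the floor in every WAT library. The sums differed more. Hepatocyte markers summed to 88216 to 144830 CPM in liver, 4965 to 5891 CPM in WAT and 46.0 to 352.5 CPM in gastrocnemius. Adipocyte markers summed to 20881 to 31367 CPM in WAT and 265 to 573 CPM in gastrocnemius. Muscle-fibre markers summed to 91810 to 121432 CPM in gastrocnemius and 46.5 to 201 CPM in WAT. Summed muscle-fibre markers reached 6.78 CPM in liver of CORT-treated GRmKO mice and 0.05 to 0.76 CPM in the other liver libraries.

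In liver, *Tat* fell with CORT in GRf/f mice, and no other member changed by 2-fold. *Tat* stood at 2140 CPM in vehicle-treated and 773 CPM in CORT-treated GRf/f mice, and at 2373 CPM in vehicle-treated and 1312 CPM in CORT-treated GRmKO mice. Both CORT libraries lay below both vehicle libraries, and the lowest level was that of CORT-treated GRf/f mice. The log2 change, with 0.5 CPM added to each level before the ratio was taken, was -1.47 in GRf/f mice (-1.50 to -1.44), where *Tat* fell to 36.1% of its vehicle level. In GRmKO mice the log2 change was -0.85 (-0.88 to -0.83), which did not pass the 2-fold threshold. The change was less negative in GRmKO mice by 0.61 on the log2 scale (0.58 to 0.65, counting error only), and whether mice differ by as much cannot be judged from 1 library per group.

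Thus 1 of 10 members changed by 2-fold with CORT in GRf/f liver, by falling. Among 12485 genes above 0 in all 4 liver libraries, 11.6% changed by 2-fold in either direction and 5.72% fell. No member passed in GRmKO liver, against 5.61% of genes. The median log2 change of the members was -0.20 in GRf/f and -0.16 in GRmKO liver, beside 0.00 and 0.05 over all genes tested. In bulk tissue, fewer cells of a type and less RNA per cell cannot be told apart. Summed leukocyte markers were 132 and 23.6 CPM in GRf/f liver under vehicle and CORT and 106 and 41.6 CPM in GRmKO liver, and summed hepatocyte markers were 88216 and 112478 CPM in GRf/f and 111253 and 144830 CPM in GRmKO liver. The higher sums under CORT came from *Alb*. The other 8 hepatocyte markers summed to 38364 and 29227 CPM in GRf/f and to 39986 and 33331 CPM in GRmKO liver, and 6 of the 9 were lower under CORT in each genotype. Of these lists, 5 or 6 of 6 leukocyte markers (*Cd3e* being at 0 in CORT-treated GRmKO liver) and 9 of 9 hepatocyte markers were above the floor. The part of either in the *Tat* values was not tested.

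**Figure D1:**
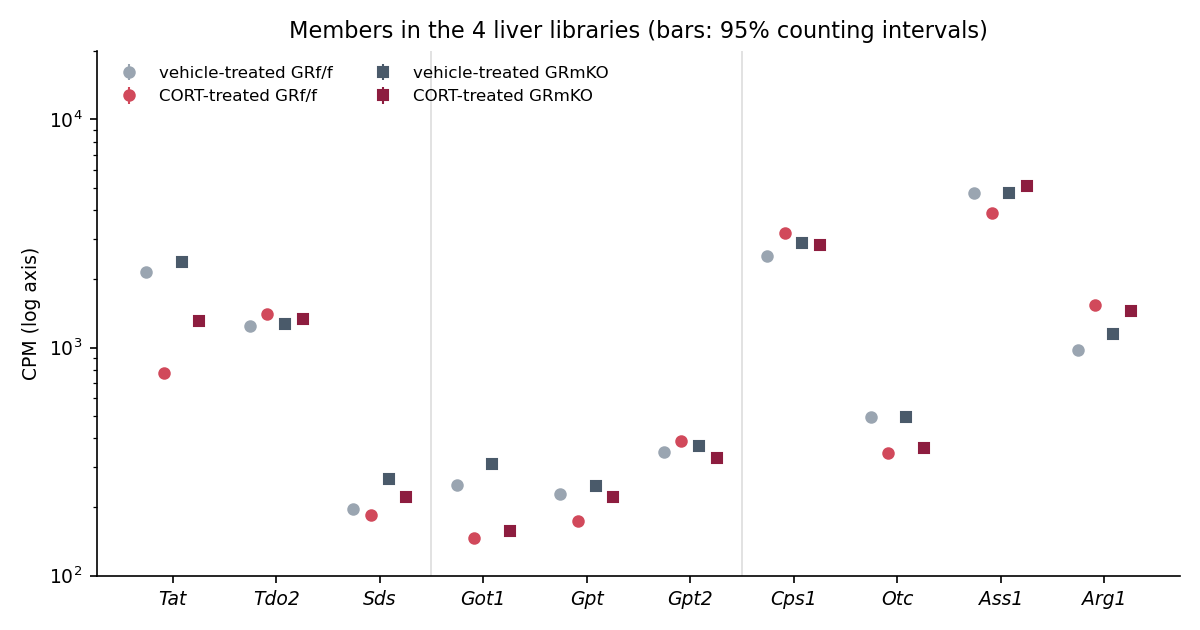
Levels of the 10 members in liver, as CPM on a log axis, with 1 point per library (circles, GRf/f; squares, GRmKO; grey, vehicle; red, CORT) and 95% Wilson counting intervals, most of them smaller than the points. *Tat* is lower in both CORT libraries (773 and 1312 CPM) than in both vehicle libraries (2140 and 2373 CPM), and *Ass1* is the most abundant member in every library.

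The aminotransferases differed among themselves. *Got1* stood at 248.5 CPM in vehicle-treated and 147 CPM in CORT-treated GRf/f liver, and at 308 and 157 CPM in GRmKO liver. Its log2 change was -0.76 (-0.83 to -0.70) in GRf/f and -0.97 (-1.04 to -0.91) in GRmKO mice, both short of 2-fold, and the second passed 2-fold with TMM scaling of the libraries. The mitochondrial enzyme of the same reaction, encoded by *Got2*, was not a member and stood at 554 and 633 CPM in GRf/f and at 572 and 639 CPM in GRmKO liver. Per kilobase of transcript, the ratio of *Got1* to *Got2* was accordingly 0.55 and 0.66 in vehicle-treated and 0.28 and 0.30 in CORT-treated GRf/f and GRmKO liver.

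For alanine, the levels of *Gpt* were 229 and 174 CPM in vehicle- and CORT-treated GRf/f liver and 248 and 222 CPM in GRmKO liver. Those of *Gpt2* were 348.5 and 387 CPM in GRf/f and 369 and 328 CPM in GRmKO liver. The log2 changes with CORT were -0.39 and -0.16 for *Gpt* and 0.15 and -0.17 for *Gpt2*, none of them past 2-fold. Per kilobase, the *Gpt* level was 1.33 to 1.37 times that of *Gpt2* in 3 liver libraries and 0.91 times in that of CORT-treated GRf/f mice.

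*Tdo2* and *Sds* did not pass 2-fold in either genotype. *Tdo2* stood at 1242 and 1407 CPM in vehicle- and CORT-treated GRf/f liver and at 1264 and 1336 CPM in GRmKO liver, with log2 changes of 0.18 and 0.08. *Sds* stood at 196 and 185 CPM in GRf/f and at 265 and 222 CPM in GRmKO liver, with log2 changes of -0.09 and -0.26. The ratio of *Tat* to *Tdo2* per kilobase was 2.49 and 2.71 in the vehicle libraries of GRf/f and GRmKO mice and 0.79 and 1.42 in the CORT libraries.

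None of the 4 urea cycle members changed by 2-fold in liver, and their values did not share a direction. *Arg1* stood at 973 and 1543 CPM in vehicle- and CORT-treated GRf/f liver and at 1149 and 1444 CPM in GRmKO liver, a log2 change of 0.67 (0.64 to 0.69) and 0.33 (0.30 to 0.35). *Otc* stood at 496.5 and 344 CPM in GRf/f and at 494.5 and 362.5 CPM in GRmKO liver, a log2 change of -0.53 (-0.57 to -0.49) and -0.45 (-0.49 to -0.40). For both genes the CORT libraries lay on one side of the vehicle libraries, above for *Arg1* and below for *Otc*. The ratio of *Arg1* to *Otc* per kilobase was 3.08 and 3.65 in the vehicle libraries of GRf/f and GRmKO mice and 7.05 and 6.25 in the CORT libraries.

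*Cps1* and *Ass1* had no such order. *Cps1* stood at 2522 and 3162 CPM in vehicle- and CORT-treated GRf/f liver and at 2886 and 2820 CPM in GRmKO liver, with log2 changes of 0.33 and -0.03. *Ass1* stood at 4779 and 3872 CPM in GRf/f and at 4766 and 5105 CPM in GRmKO liver, with log2 changes of -0.30 and 0.10. The CORT changes of the genotypes differed by -0.36 (-0.38 to -0.34) for *Cps1* and by 0.40 (0.38 to 0.42) for *Ass1*, taken as GRmKO minus GRf/f on the log2 scale.

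Between genotypes, no member differed by 2-fold in liver, either under vehicle, where 2.3% of genes did, or under CORT, where 4.72% did. Both GRf/f liver libraries carry sample numbers apart from those of all other libraries, and no batch is named. Genotype in liver therefore cannot be told apart from any difference in handling. Under vehicle the log2 differences of the members, GRmKO over GRf/f, ran from -0.01 for *Otc* to 0.43 for *Sds*, with a median of 0.13 beside 0.03 over all genes. Under CORT they ran from -0.24 for *Gpt2* to 0.76 for *Tat*, with a median of 0.09 beside 0.07. The *Tat* level was therefore 1.697 times as high in GRmKO as in GRf/f liver under CORT (log2 0.73 to 0.79) and 1.11 times as high under vehicle.

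**Figure D2:**
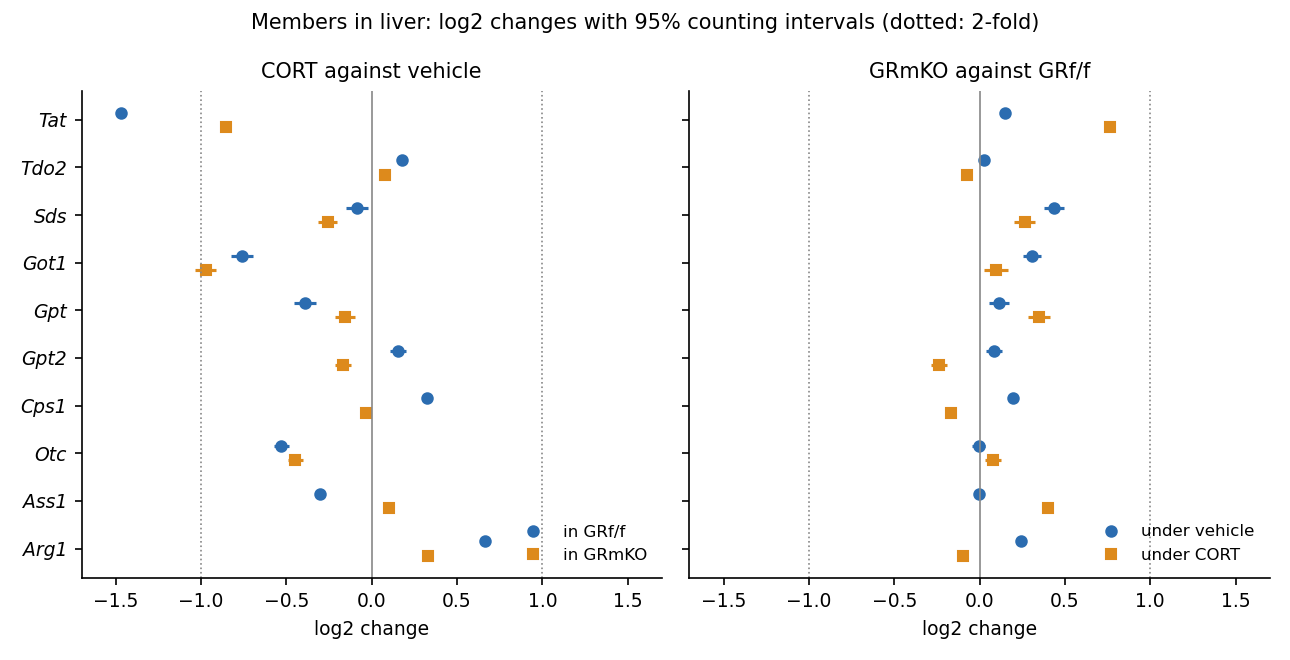
Log2 changes of the members in liver, CORT over vehicle in each genotype (left) and GRmKO over GRf/f under each treatment (right), with 95% exact counting intervals as horizontal bars and the 2-fold threshold as dotted lines. The point of *Tat* for CORT in GRf/f mice, at -1.47, is beyond the threshold, and *Got1* in GRmKO mice, at -0.97, is close to it.

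Per kilobase, *Ass1* ranked first in all 4 liver libraries, at 2283 to 3010 CPM per kilobase. *Tat* ranked second in both vehicle libraries, at 901 and 999 CPM per kilobase, and came 5th in CORT-treated GRf/f liver (326) and 3rd in CORT-treated GRmKO liver (552.5). *Arg1* took the second place in both CORT libraries, at 1045 and 977 CPM per kilobase. *Gpt2* or *Got1* came last, at 71.2 to 101 CPM per kilobase. Whether neighbours in this order differ by more than the spread between mice cannot be judged without replicates.

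Genes with a liver pattern like that of *Tat* were sought among 1841 genes with a mean of at least 50 CPM, by the root-mean-square distance of log2 profiles centred over the 4 libraries. Among the closest were *Ang* and *Rnase4*, ribonucleases encoded at a shared locus (distances 0.05 and 0.08). *Ang* stood at 110 and 40.7 CPM in vehicle- and CORT-treated GRf/f liver and at 114 and 65.1 CPM in GRmKO liver. Over 4 libraries such likeness is a description only.

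The rest of the same pathways was read from lists of 51 genes, of which 49 were above 0 in all 4 liver libraries (*Arg2* and *Tdh* were not). With CORT, 7 of the 49 rose and 1 fell in GRf/f liver, and 3 rose and 2 fell in GRmKO liver, with medians of 0.05 and 0.06 on the log2 scale. These counts stand beside the 11.6% and 5.61% of all genes given above. Of those, 737 rose and 714 fell in GRf/f liver, and 349 rose and 352 fell in GRmKO liver. Enzymes of the methionine and cysteine list carry out methyl transfer and taurine synthesis. Of the 7 genes tested in this list, 4 rose in GRf/f liver. The median log2 change of the list was 1.18 in GRf/f and 0.49 in GRmKO mice. *Bhmt*, which remethylates homocysteine, went from 2319 to 10413 CPM in GRf/f and from 2320 to 4648 CPM in GRmKO liver, log2 changes of 2.17 and 1.00, the second at the threshold itself. *Mat1a*, the liver enzyme that makes S-adenosylmethionine, rose from 1223 to 3955 CPM in GRf/f liver (log2 1.69) and stood at 1875 and 2693 CPM in GRmKO liver (log2 0.52). *Cdo1*, cysteine dioxygenase, rose from 901 to 2037 CPM in GRf/f liver (log2 1.18) and stood at 1242 and 1742 CPM in GRmKO liver (log2 0.49). *Csad*, which acts on the way to taurine, rose from 39.4 to 92.4 CPM in GRf/f and from 51.5 to 257 CPM in GRmKO liver.

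In the other lists, *Gldc* of the glycine cleavage system rose from 90.4 to 262 CPM in GRf/f and from 98.9 to 230.0 CPM in GRmKO liver. *Acmsd*, on the kynurenine route after *Tdo2*, rose from 27.2 to 103 CPM in GRf/f liver (log2 1.90) and stood at 38.9 and 57.0 CPM in GRmKO liver (log2 0.55). *Asl*, the urea cycle enzyme between *Ass1* and *Arg1*, rose from 202 to 415 CPM in GRf/f liver (log2 1.04) and stood at 301.5 and 377 CPM in GRmKO liver (log2 0.32). It was 1 of 7 tested genes of the urea cycle and nitrogen supply list to pass in GRf/f liver. *Agxt*, alanine-glyoxylate aminotransferase, fell from 168 to 31.8 CPM in GRf/f (log2 -2.39) and from 160 to 61.7 CPM in GRmKO liver (log2 -1.37). *Oat*, ornithine aminotransferase, fell in GRmKO liver from 756.5 to 264 CPM (log2 -1.52) and stood at 713 and 385 CPM in GRf/f liver (log2 -0.89).

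Of the 7 tested genes that act on phenylalanine and tyrosine around *Tat*, none passed in either genotype, and their median was -0.09 in GRf/f and -0.03 in GRmKO liver. No histidine or lysine gene passed either. Between genotypes, none of the 49 genes differed by 2-fold under vehicle. Of all genes tested, 2.3% did so under vehicle and 4.72% under CORT. Under CORT, *Csad* (log2 1.47) and *Kyat1*, a kynurenine aminotransferase (1.19, 77.9 against 33.8 CPM), were higher and *Bhmt* (-1.16) was lower in GRmKO than in GRf/f liver.

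**Figure D3:**
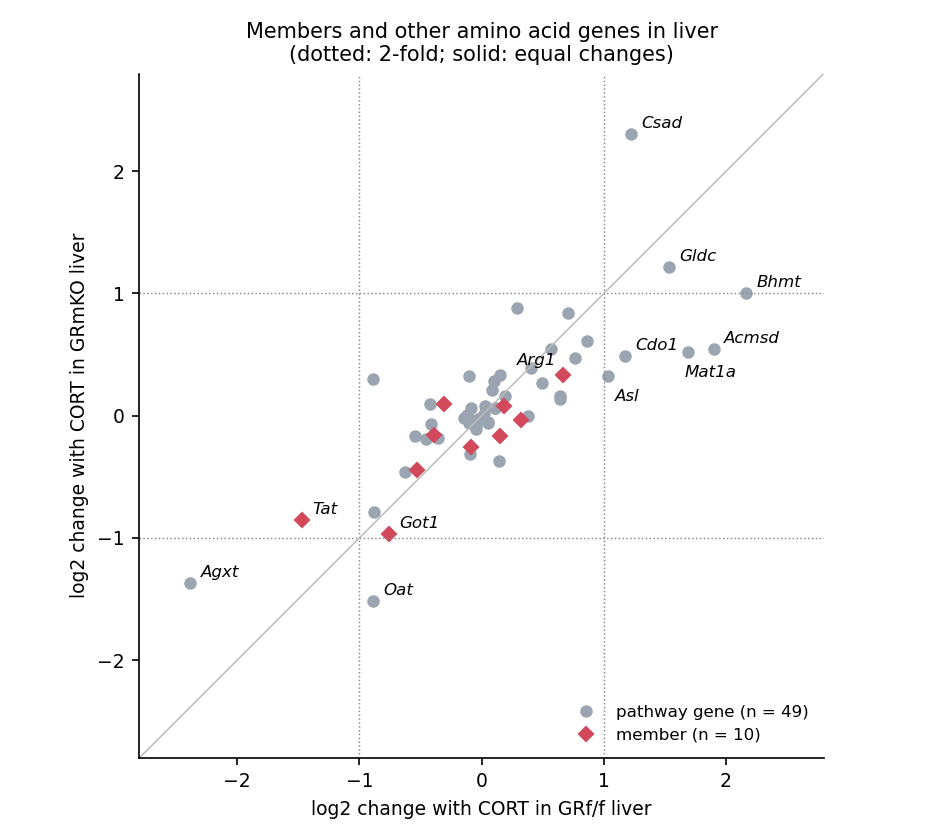
Log2 change with CORT in GRf/f liver (horizontal axis) against that in GRmKO liver (vertical axis) for the 10 members (diamonds) and 49 other amino acid genes (circles), with the 2-fold threshold dotted and equal changes on the solid line. *Tat* is beyond the threshold on the GRf/f axis, and *Bhmt*, *Mat1a*, *Acmsd*, *Csad*, *Gldc*, *Agxt* and *Oat* are farther out than any member on at least 1 axis.

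In gastrocnemius the members differed widely in level. *Got1* and *Gpt2*, which serve the transfer of amino groups to aspartate and alanine in working muscle, were abundant, *Gpt* and *Ass1* stood at 4.64 to 20.05 CPM, and the other 6 were at or below 6.50 CPM in every library. *Got1* stood at 345 and 289.5 CPM in vehicle- and CORT-treated GRf/f muscle and at 331 and 321 CPM in GRmKO muscle. Its level was 107.5% to 205% of that in liver of the same genotype and treatment, as CPM with no scaling between the tissues. *Gpt2* stood at 323 and 258 CPM in GRf/f muscle and at 197 and 189 CPM in GRmKO muscle. Both GRmKO libraries lay below both GRf/f libraries, a log2 difference of -0.71 (-0.77 to -0.65) under vehicle and -0.45 (-0.51 to -0.39) under CORT, neither past 2-fold. *Gpt* stood at 9.02 to 10.4 CPM, and *Gpt2* exceeded it 10.3 to 15.3 times per kilobase.

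With CORT, no member of the 9 tested in gastrocnemius changed by 2-fold in GRf/f mice, where 7.97% of genes did, and 4 were higher in GRmKO mice, namely *Tat*, *Tdo2*, *Cps1* and *Arg1*. In that comparison 6.53% of genes passed in either direction and 1.51% by rising, 205 genes up and 680 down, or 261 and 496 with TMM scaling of the libraries. In GRmKO over GRf/f muscle under vehicle 4 of 9 were higher (*Tat*, *Tdo2*, *Cps1* and *Ass1*), beside 7.77% of genes either way and 4.59% higher. Under CORT 5 of 9 were higher, the same 4 and *Arg1*, beside 9.71% either way and 4.4% higher. The median log2 values of the 9 were -0.07, 0.92, 0.83 and 2.0 in these 4 comparisons, beside -0.08, -0.10, 0.07 and 0.02 over all genes tested. *Otc* was not tested, since it had no count in either GRf/f library. NOISeq, the caller of the study, which simulates counting noise in place of replicates, called 0 of the 4 for CORT in GRmKO mice, 0 of the 4 for genotype under vehicle and 3 of the 5 under CORT. With 2 CPM added in place of 0.5, the count for genotype under vehicle was also 0.

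All of these values were small in absolute terms. *Tat* stood at 0.10 and 0.21 CPM in vehicle- and CORT-treated GRf/f muscle and at 1.60 and 4.33 CPM in GRmKO muscle. *Tdo2* stood at 0.10 and 0.31 CPM in GRf/f and at 1.25 and 6.40 CPM in GRmKO muscle. *Cps1* was represented by 1 and 2 counts in GRf/f muscle and stood at 1.75 and 6.50 CPM in GRmKO muscle. In each case the order of the libraries was GRf/f, then vehicle-treated GRmKO, then CORT-treated GRmKO.

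The ratio of GRmKO to GRf/f muscle under CORT was 21.01 for *Tat*, 20.7 for *Tdo2* and 63.2 for *Cps1*, with counting intervals of 2.98 to 6.30, 3.21 to 5.84 and 4.09 to 9.04 on the log2 scale. The *Cps1* ratio rests on a GRf/f level of 0.10 CPM, which is below the floor. With 0.5 CPM added, the log2 changes were 2.77, 3.09 and 3.54. *Arg1* stood at 0.20 and 0.15 CPM in GRf/f and at 0.75 and 5.41 CPM in GRmKO muscle. *Ass1* stood at 4.89 and 4.64 CPM in GRf/f and at 10.4 and 20.05 CPM in GRmKO muscle, a log2 difference of 1.02 (0.74 to 1.45) under vehicle and 2.0 (1.78 to 2.46) under CORT. *Otc* was at 0.25 and 1.43 CPM in GRmKO muscle, and under CORT it was at least 9.24-fold higher than in GRf/f muscle, taken at the floor of 3 counts in that library. *Sds* stood at 0.10 to 0.72 CPM and passed in no comparison.

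**Figure D4:**
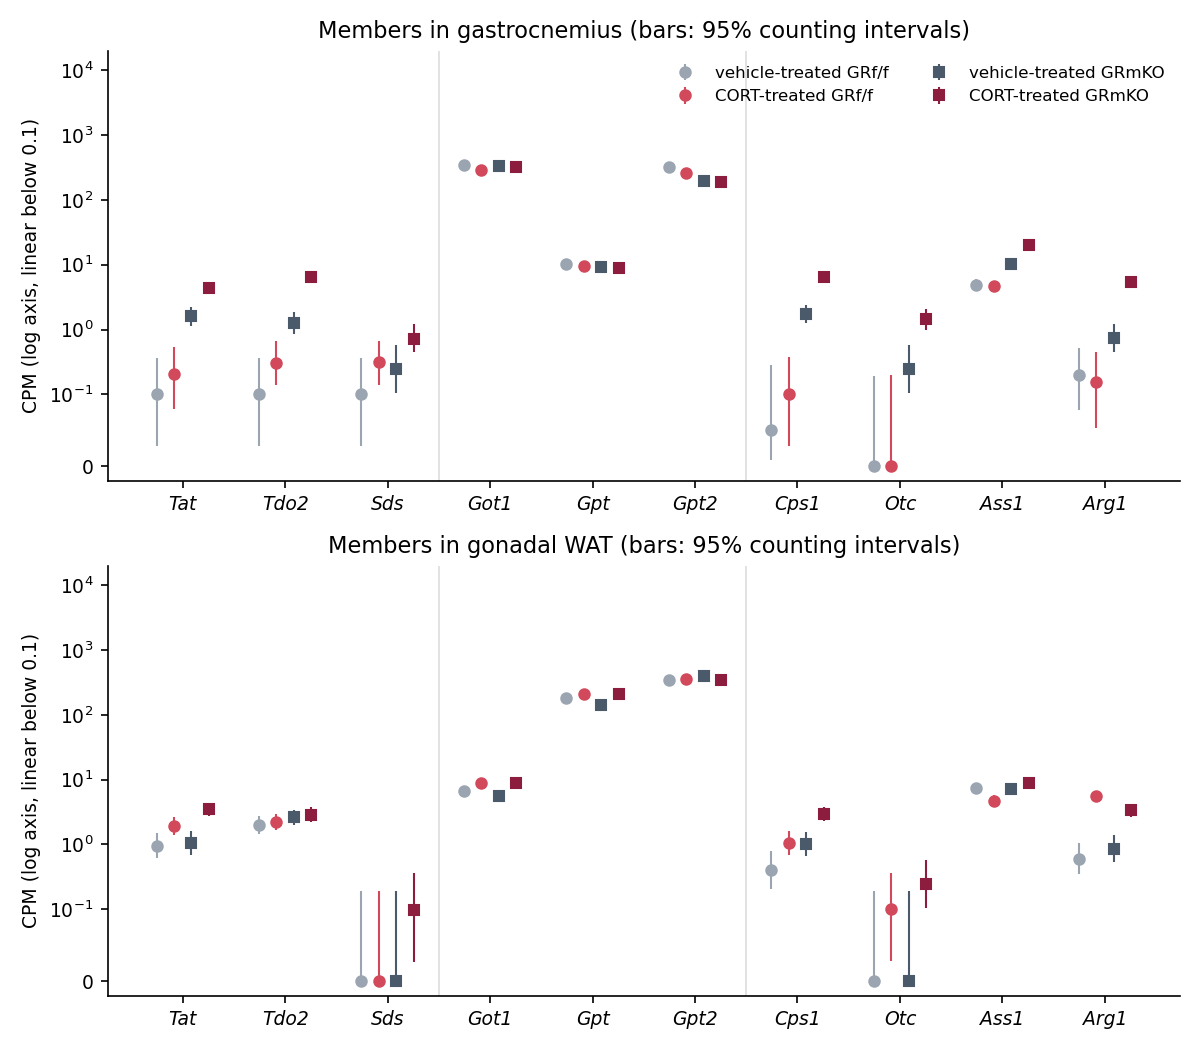
Levels of the members in gastrocnemius (top) and gonadal WAT (bottom), as CPM on a log axis that is linear below 0.1, with 1 point per library and 95% Wilson counting intervals. In gastrocnemius *Got1* and *Gpt2* are between 189 and 345 CPM, and *Tat*, *Tdo2*, *Cps1*, *Ass1*, *Arg1* and *Otc* are highest in the library of CORT-treated GRmKO mice; in gonadal WAT *Gpt* and *Gpt2* are between 140 and 391 CPM.

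Most hepatocyte markers moved with these values. Of the 9 listed, 9 were higher in GRmKO than in GRf/f muscle under vehicle and 8 under CORT, and 9 were higher with CORT than with vehicle in GRmKO muscle. *Alb* stood at 4.13 and 7.47 CPM in vehicle- and CORT-treated GRf/f muscle and at 56.4 and 198 CPM in GRmKO muscle. *Cyp2e1* had another order, at 39.0, 103, 49.8 and 91.1 CPM. The 9 markers summed to 46.0, 113, 131 and 352.5 CPM and, without *Cyp2e1*, to 7.03, 9.48, 81.3 and 261.5 CPM, with *Apoc3* at 0 in vehicle-treated GRf/f muscle and 8, 8, 9 and 9 of the 9 above the floor. As a percentage of the level in liver of the same genotype and treatment, their median was 0.0099%, 0.0092%, 0.0792% and 0.224%. For *Tat*, *Tdo2*, *Sds*, *Cps1*, *Arg1* and *Otc*, a set chosen after their values were seen, the corresponding medians were 0.0064%, 0.016%, 0.0663% and 0.352%. *Ass1* was at 0.102%, 0.12%, 0.218% and 0.393% of its liver level. Red blood cell markers summed to 494, 486, 865 and 1588 CPM in the same libraries, with 3 of 3 above the floor in each. Leukocyte markers summed to 184, 82.7, 543.5 and 141.5 CPM, with 5, 6, 6 and 4 of 6 above the floor and *Ptprc* and *Cd3e* at 0 in the last. The part of RNA from hepatocytes, blood or leukocytes in the member values was not tested.

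**Figure D5:**
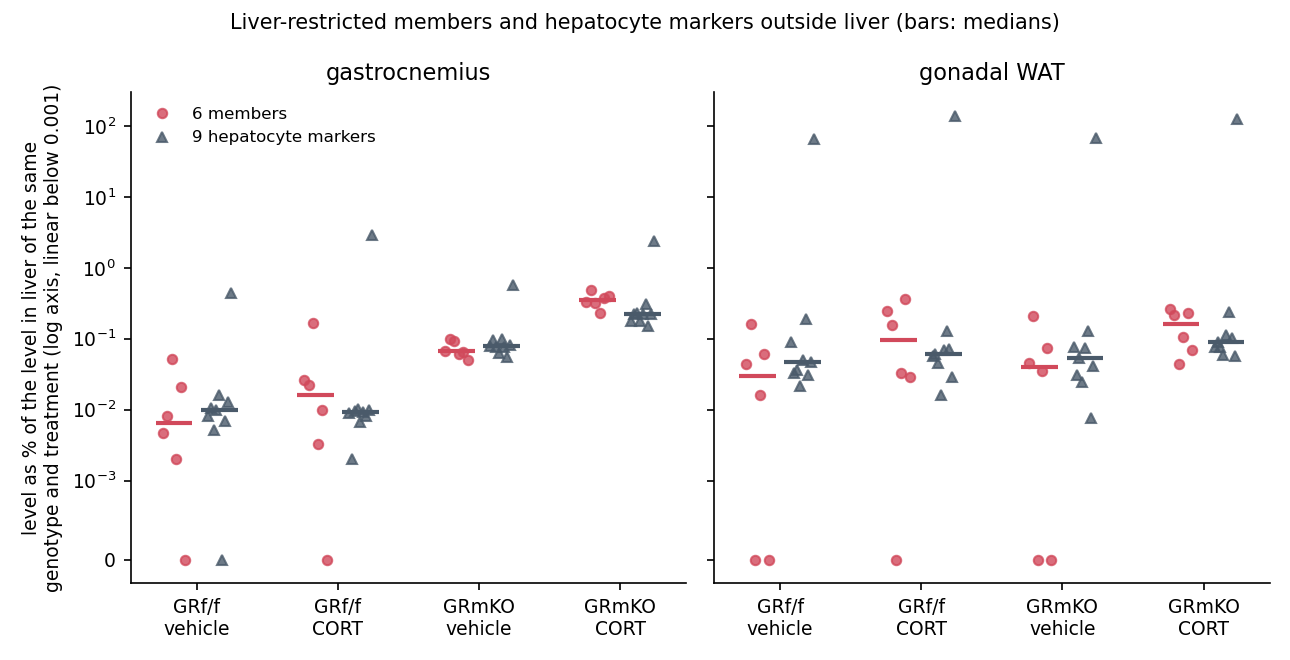
Levels outside liver as a percentage of the level in liver of the same genotype and treatment, on a log axis that is linear below 0.001%, for *Tat*, *Tdo2*, *Sds*, *Cps1*, *Arg1* and *Otc* (circles) and 9 hepatocyte markers (triangles), with medians as bars. In gastrocnemius both medians are highest in CORT-treated GRmKO mice (0.352% and 0.224%); the triangle far above the others, at 64.4% to 138% in gonadal WAT, is *Cyp2e1*.

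In gonadal WAT the alanine aminotransferases were abundant, and *Arg1* was the member with the largest CORT change. *Gpt* stood at 182 and 209 CPM in vehicle- and CORT-treated GRf/f WAT and at 140 and 208 CPM in GRmKO WAT. *Gpt2* stood at 346 and 353 CPM in GRf/f and at 391 and 339 CPM in GRmKO WAT, or 91.2% to 106% of its liver level. *Got1* stood at 6.56 and 8.99 CPM in GRf/f and at 5.51 and 8.82 CPM in GRmKO WAT. None of these passed 2-fold, the log2 changes of *Gpt* being 0.20 and 0.57 and those of *Got1* 0.43 and 0.63.

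*Arg1* stood at 0.60 and 5.52 CPM in vehicle- and CORT-treated GRf/f WAT and at 0.86 and 3.37 CPM in GRmKO WAT. Both CORT libraries lay above both vehicle libraries, with log2 changes of 2.45 and 1.51, where the ratios without the added 0.5 CPM were 9.19 and 3.91 (log2 2.34 to 4.195 and 1.19 to 2.83). *Arg1* is also known as a gene of some macrophages. Of the 6 leukocyte markers, *Cd68* stood at 50.9 and 171 CPM in GRf/f and at 58.3 and 161 CPM in GRmKO WAT, *Lyz2* and *Adgre1* were likewise higher in both CORT libraries, and *Cd74* and *Cd3e* were lower. *Ptprc* was at 0 in CORT-treated GRf/f WAT, and the list summed to 1167, 1456, 1482 and 1546 CPM. The part of leukocytes in the *Arg1* values was not tested.

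With CORT, 1 of 8 members tested in gonadal WAT was higher in GRf/f mice (*Arg1*), beside 13.6% of genes either way and 5.49% higher. In GRmKO mice 3 of 8 were higher (*Tat*, *Cps1* and *Arg1*), beside 9.1% either way and 3.47% higher, 494 genes up and 800 down, or 645 and 597 with TMM scaling. Between genotypes no member passed under vehicle, where 2.22% of genes did, and *Cps1* was higher in GRmKO WAT under CORT, beside 2.62% of genes either way and 1.43% higher. The medians of the 8 were 0.31, 0.60, 0.14 and 0.15 in these comparisons, beside -0.07, -0.12, 0.02 and -0.03 over all genes. *Sds* and *Otc* were not tested, as each had no count in at least 1 WAT library. NOISeq called 0 members in gonadal WAT for CORT in either genotype and for genotype under CORT. With 2 CPM added, the counts for CORT in GRmKO mice and for genotype under CORT were also 0.

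*Tat* stood at 0.95 and 1.91 CPM in vehicle- and CORT-treated GRf/f WAT and at 1.07 and 3.47 CPM in GRmKO WAT, and *Cps1* at 0.40 and 1.06 and at 1.01 and 2.98 CPM. Both genes were highest in the library of CORT-treated GRmKO mice. *Tdo2* stood at 2.004 to 2.87 CPM and *Ass1* at 4.72 to 8.71 CPM, with no change of 2-fold. The hepatocyte markers were at a median of 0.0464%, 0.0609%, 0.0544% and 0.0908% of their liver levels in GRf/f WAT under vehicle and CORT and GRmKO WAT under vehicle and CORT. All 9 were above the floor and summed to 4965 to 5891 CPM, most of it *Cyp2e1* (4877 to 5824 CPM). *Alb* stood at 44.8, 46.8, 54.2 and 84.8 CPM in the same order. The part of hepatocyte RNA in the *Tat* and *Cps1* values was not tested.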

How the data were processed

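RNA-seq values from 12 libraries, each 1 RNA pool of 3 mice, were analysed. The deposited values are expected counts (estimated counts) that the authors obtained with Salmon 1.2.1 on GENCODE M20 protein-coding transcripts (GRCm38) and imported with tximport on the length-scaled scale in R 3.5.0, unscaled between libraries. Of entries sharing a symbol, only the one with the highest sum had been retained by the authors. Each entry carries a transcript identifier, and whether counts had been summed over the gene was not settled, so isoforms cannot be separated and per-kilobase levels use the length of the named transcript. Positions came from GENCODE M21 and promoters from RefSeq, both on GRCm38.

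CPM was the count divided by the library total. A change was log2 of the CPM ratio after adding 0.5 CPM. It was called at 2-fold or more, with 1 side above 3 counts, among genes with a value above 0 in each of a tissue's 4 libraries (12485 in liver, 13543 in gastrocnemius and 14218 in gonadal WAT). CPM carries 95% Wilson intervals. Ratios carry 95% exact (Clopper-Pearson) intervals on rounded counts without the added 0.5 CPM, so at low counts they can lie beyond the log2 change beside them. Differences between CORT changes carry delta-method intervals. All cover counting error only. With 1 library per group, no test between conditions was run. The study called genes with NOISeq, and its simulation without replicates (calls at a probability of 0.9, 5 simulated samples per library at a share of 0.2 of its depth, variability 0.02) was written out here as an alternative and tested on simulated data. The other alternatives were TMM (edgeR 4.0.16) and median-of-ratios factors (DESeq2 1.42.0), 0.1 or 2 CPM added, a mean of at least 1 CPM, and no filter on zeros. Python 3.11.15, pandas 2.3.3, numpy 2.4.6, scipy 1.17.1 and R 4.3.3 were used.

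All members were reported in every library. Genes of the 8 pathway lists were named where they passed 2-fold in a liver comparison, and the 3 genes with the most similar pattern were to be named for members past 2-fold there, 1 of which is not reported here. A gene like *Got1* was named in addition, after its values were seen. The members and lists were chosen with earlier results of these data known.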

Additional observations from a re-analysis of the deposited data

Results flagged for a closer look

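*Tat* changed with CORT in opposite directions in GRf/f liver and in GRmKO muscle and fat. In GRf/f mice the log2 change was -1.47 in liver, 0.23 in gastrocnemius (from 2 and 4 counts) and 0.73 in gonadal WAT. In GRmKO mice it was -0.85 in liver, 1.201 in gastrocnemius and 1.34 in gonadal WAT. Of these, the value in GRf/f liver and those in GRmKO gastrocnemius and WAT passed 2-fold. NOISeq called the value in GRf/f liver and neither of those in GRmKO gastrocnemius and WAT. The liver values rest on 773 CPM or more, and those of GRmKO mice outside liver on 1.60 and 4.33 CPM in gastrocnemius and on 1.07 and 3.47 CPM in gonadal WAT. *Alb* stood at 56.4 and 198 CPM in GRmKO gastrocnemius and at 54.2 and 84.8 CPM in GRmKO WAT under vehicle and CORT, and the part of hepatocyte RNA in the *Tat* values was not tested. The difference between tissues was not tested, since each value compares 1 pair of libraries.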

How the results depend on the processing

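No paired analysis was run, since each group has 1 library. For the same reason no replicate could be left out. The 12 counts of members past 2-fold kept within 1.5 times of their value with a mean of at least 1 CPM and with no filter on zeros, and no called member reversed under any scaling or added value. With TMM and with median-of-ratios factors, 1 member (*Got1*) instead of 0 passed for CORT in GRmKO liver, and the other 11 counts kept that range. With 0.1 CPM added, the count was 2 instead of 0 for CORT in GRf/f gastrocnemius (*Tdo2* and *Sds*), 2 instead of 1 for CORT in GRf/f WAT and 1 instead of 0 for genotype in WAT under vehicle (*Cps1* added in both). With 2 CPM added, it was 0 for genotype in gastrocnemius under vehicle, for CORT in GRmKO WAT and for genotype in WAT under CORT. NOISeq called *Tat* in GRf/f liver. It called 0 members in gastrocnemius for CORT in GRmKO mice and for genotype under vehicle, 3 for genotype under CORT (*Tdo2*, *Cps1* and *Ass1*), and 0 in WAT for CORT in both genotypes and for genotype under CORT. Scaling moved the median of all genes by up to 0.13 in gastrocnemius and 0.12 in WAT for CORT in GRmKO mice, and by up to 0.07 in liver. It turned the sign of 1 or 2 of 40 member values in liver, 4 of 40 in gastrocnemius and 2 of 40 in WAT, all of them below 0.08 in size. Counts over all genes ran from 287 to 1928 as reported, from 670 to 2603 with 0.1 CPM added, from 114 to 1192 with 2 CPM added, from 657 to 2438 with no filter on zeros, from 448 to 1968 with a mean of at least 1 CPM and from 71 to 1093 with NOISeq. For CORT in GRf/f gastrocnemius the split of 441 higher and 639 lower genes became 544 and 518 with median-of-ratios factors. At the levels of the liver-restricted members outside liver, some of the calls depended on the added value.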

Other observations

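Outside liver, *Oat*, *Cdo1* and *Cth* of the listed amino acid genes stood above the liver-restricted members in the tissues given here. *Prodh* did so except in CORT-treated GRmKO gastrocnemius, where *Cps1*, *Tdo2*, *Arg1* and *Tat* were higher. All of these genes were chosen after their values were seen, and no test applies. In gastrocnemius, *Oat*, ornithine aminotransferase, stood at 125 and 289 CPM in vehicle- and CORT-treated GRf/f mice and at 97.1 and 96.5 CPM in GRmKO mice. *Prodh*, proline dehydrogenase, stood at 4.84 and 11.5 CPM in GRf/f and at 5.15 and 3.80 CPM in GRmKO mice. *Cdo1*, cysteine dioxygenase, stood at 13.04 and 50.4 CPM in GRf/f and at 12.5 and 48.6 CPM in GRmKO muscle under vehicle and CORT. In gonadal WAT, *Cth*, cystathionine gamma-lyase, stood at 7.67 and 20.6 CPM in GRf/f and at 7.70 and 17.9 CPM in GRmKO mice.

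In liver, the gene whose pattern was closest to that of *Got1* was *Tsc22d3*, a known glucocorticoid target, named here after its values were seen. It stood at 84.1 and 46.2 CPM in vehicle- and CORT-treated GRf/f liver and at 107 and 49.1 CPM in GRmKO liver, with a distance of 0.06 on the log2 scale.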
